A study of Homo sapiens with 12 samples.

Results

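The expression of 41 autophagy and lysosome genes was measured in Ewing sarcoma cells with a conditional knockout of RRM1, before and after the removal of doxycycline. The 41 genes were chosen by gene symbol, with earlier results of these data known. All 41 had a row among the 20771 genes of the count table, and all 41 were among the 16515 genes that passed the filter on low counts.

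RRM1 is the catalytic subunit of ribonucleotide reductase, the enzyme that makes deoxyribonucleotides for DNA replication. A pair of Ewing sarcoma lines was used, EW8-RRM1-KO and the TC71-RRM1-KO line, and their RNA was sequenced in 12 libraries, with 3 libraries in each of 4 groups. In all 4 groups Cas9 had disrupted the endogenous RRM1 gene, and a lentiviral, codon-optimized RRM1 transgene was expressed only while doxycycline was present. The groups were EW8 cells labelled 0 h (with doxycycline), EW8 cells labelled 48 h (48 h after doxycycline was taken away), and the same pair of groups for TC71. Each knockout line was cloned from a single cell, and the sources used here do not say whether the 3 libraries of a group came from separate cultures, so p-values measure the spread between these libraries, which may be technical. No library came from cells that lost doxycycline but kept RRM1, so the withdrawal of the drug and the loss of RRM1 cannot be told apart here. Total counts per library ranged from 18468485 to 35698991. All 7 Ewing sarcoma marker genes examined were detected in every library, and among 10 markers of other cell types 6 had no row, PTPRC, CDH5 and ALB stayed at or below 6 counts, and EPCAM ranged from 2 to 43 counts. The deposited RRM1 row counts the endogenous sequence. In EW8 it held 214, 166 and 317 counts at 0 h, against 1201, 1449 and 1514 at 48 h. In TC71 it held 422, 316 and 418 counts at 0 h, against 674, 707 and 778 at 48 h. This row rose in both lines (EW8, log2 fold change 2.88, SE 0.07, adjusted p = 3.37e-27; TC71, log2 fold change 0.65, SE 0.07, adjusted p = 2.91e-09) and does not check the loss of RRM1, because the transgene differs from it in sequence.

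Macroautophagy encloses cytoplasm in a double membrane, the autophagosome, which then fuses with the lysosome, where hydrolases degrade the content. The ULK1 complex starts the process, the class III PI3-kinase complex marks the membrane with a phosphoinositide, ATG9A and the ATG2 proteins bring lipid, and a ubiquitin-like conjugation cascade attaches the ATG8 proteins (the LC3 and GABARAP families) to that membrane. Cargo receptors bind both ubiquitylated cargo and ATG8 proteins, and are themselves degraded with the cargo. The transcription factors TFEB, TFE3 and MITF bind E-box sequences in the promoters of many autophagy and lysosome genes. RNA levels do not measure autophagic flux, which was not part of these data.

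Sequences around the starts of members are shown because the TFEB family reads a short DNA motif, and several members hold it. Windows from 250 bases before to 50 bases after each RefSeq gene start (GRCh38.p14) were found for 36 of the 41 members, which had 48 windows in all. Both strands were searched for the E-box CACGTG and its extended form GTCACGTG (which contains the E-box), for the AP-1 motif TGANTCA, for the cAMP response element TGACGTCA and for the composite C/EBP and ATF4 motif TGATGCAA. The E-box was in 7.26% of all 35116 windows and in windows of 4 members, ATG14, ATG3, CTSD and LAMP1. The same 4 members held the extended form, which was in 2.40% of all windows. At 7.26% of windows, 4 members with the E-box among 48 windows is near the share of all windows. For the extended form, at 2.40%, 4 members among 48 windows is above that share. No test was run, and nothing is read from either count. TFE3 held the AP-1 motif (7.71% of all windows), GABARAPL1 and MITF held the cAMP response element (1.85%), and no member held the composite motif (0.866%). In the windows below, written 5′ to 3′ on the strand of the gene, capitals mark the extended E-box or, for GABARAPL1, the cAMP response element. LAMP1 is shown for the 250 bases before its start, which hold 5 whole matches, and 1 more begins in the last base before the start. Only 1 of the 35116 windows, that of LAMP1 itself, held at least 6.
LAMP1, chr13:113296989-113297238, plus strand: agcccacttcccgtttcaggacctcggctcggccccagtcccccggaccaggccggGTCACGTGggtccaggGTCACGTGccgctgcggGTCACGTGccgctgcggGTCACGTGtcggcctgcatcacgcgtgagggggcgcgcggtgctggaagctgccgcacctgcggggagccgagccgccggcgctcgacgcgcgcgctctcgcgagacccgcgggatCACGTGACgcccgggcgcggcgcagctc
ATG3, chr3:112561964-112561993, minus strand: ccctttctcacGTCACGTGccgggagagtc
ATG14, chr14:55411833-55411862, minus strand: aaacaaaatccCACGTGACtggctctcctc
CTSD, chr11:1763956-1763985, minus strand: ccggccgcgccCACGTGACcggtccgggtg
GABARAPL1, chr12:10212836-10212865, plus strand: ggctcgcggggTGACGTCAcagcccgacgc
A match is a run of letters and not a measured binding site. All 30 bases shown for ATG3 and for GABARAPL1, and 9 of those for CTSD, lie in exons of the gene itself in the annotation of GENCODE release 44, which starts some transcripts before the RefSeq start.

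Removal of doxycycline from EW8-RRM1-KO cells was followed by higher RNA of 23 of the 41 genes, led by the ATG8 gene MAP1LC3B (4.59-fold), the membrane gene WIPI1, the ATG8 genes MAP1LC3A and GABARAPL1, and the cargo receptor OPTN. Of the other members, 9 fell and 9 did not pass the test. A gene is said to have risen or fallen where edgeR's quasi-likelihood test gave a Benjamini-Hochberg adjusted p below 0.05 over the 16515 genes tested. By the same test 37.0% of all genes rose in EW8 and 31.6% fell, or 68.6% in either direction. The 3 libraries at 48 h did not overlap the 3 at 0 h for 35 members in EW8, and they did not overlap for 71.1% of all genes. Of the members, 5 rose more than 2-fold, against 13.9% of all genes, and none fell more than 2-fold, against 3.35%. The median log2 fold change of the members was 0.27, and that of all genes was 0.03. Scaled by total counts alone instead of by trimmed mean of M-values (TMM), the median of all genes moved to 0.16 and the split of all called genes moved from 6103 up and 5226 down to 7207 up and 4031 down. With that scaling ULK1, WIPI2, TAX1BP1, TFEB, MITF and CTSB also rose in EW8, WIPI2, ATG4B and TFE3 also rose in TC71, and ULK2, ATG4A, GABARAP and LAMP1 in EW8 and ATG3 and GABARAPL2 in TC71 no longer fell. In bulk RNA, fewer cells of one kind and less RNA per cell cannot be told apart.

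Fewer members passed the test in TC71-RRM1-KO cells. There 15 members rose, 3 fell and 23 did not pass, and no member changed more than 2-fold. Without TC71 0 h replicate 3 or without TC71 48 h replicate 3, 1 member fell instead of 3. Over all genes in TC71, 22.9% rose and 19.2% fell, 42.1% in either direction, and 3.26% rose and 0.854% fell more than 2-fold. The libraries did not overlap for 21 members in TC71 and for 49.6% of all genes. The median log2 fold change was 0.10 for the members and 0.00 for all genes. Of the 41 members, 12 rose in both lines (17.6% of all genes did so), 2 fell in both (14.3% of all genes) and 6 passed the test in neither. ULK2 alone among the members fell in EW8 and rose in TC71. The counts by role that follow cover 3 to 8 genes each and are descriptions, to be read against 37.0% of all genes that rose and 31.6% that fell in EW8 and 22.9% and 19.2% in TC71.

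**Figure D1:**
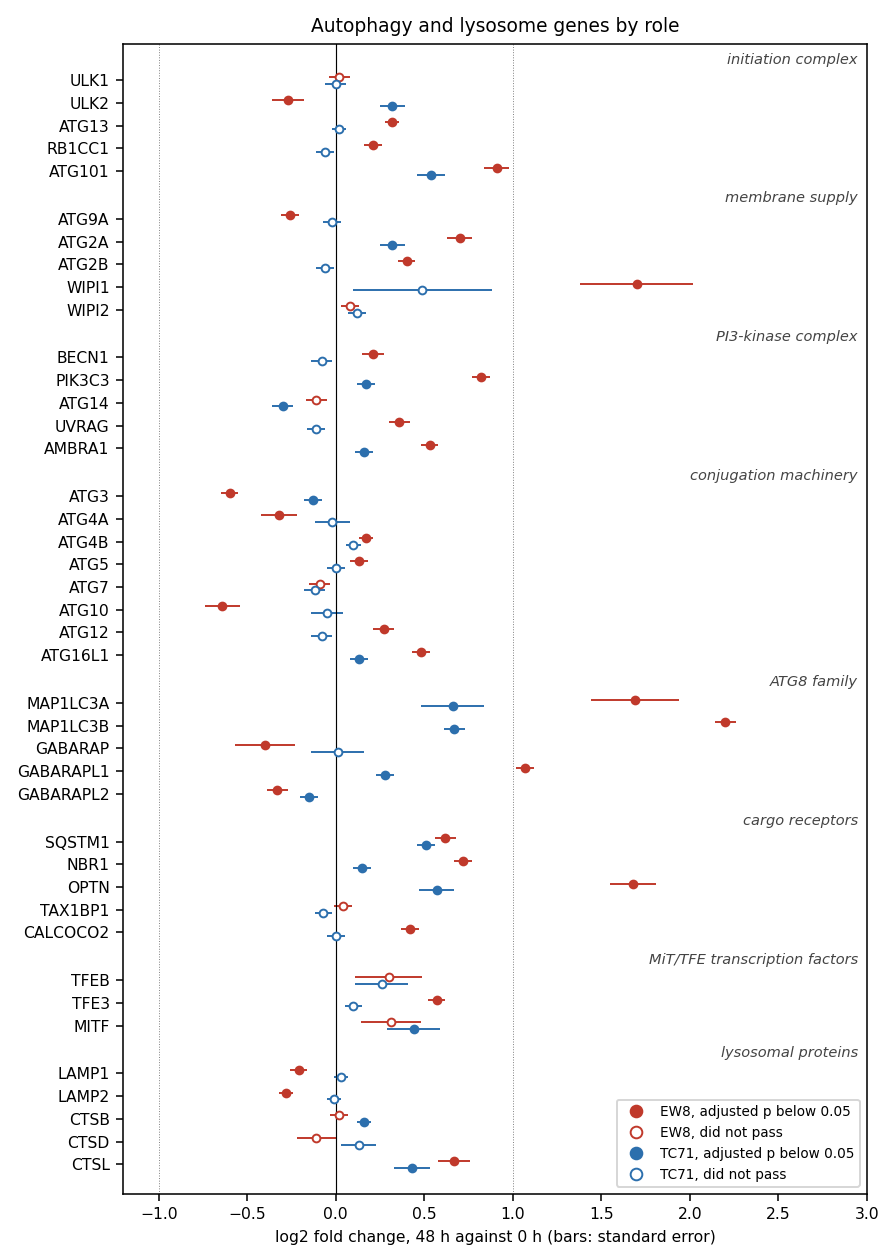
The log2 fold change of each of the 41 members at 48 h against 0 h, in EW8 and in TC71, grouped by role; points are estimates of the joint edgeR fit, bars are standard errors, and filled points have an adjusted p below 0.05. MAP1LC3B lies farthest to the right in both lines, at 2.20 in EW8 and 0.67 in TC71, and most EW8 points lie to the right of their TC71 partners (28 of 41, against 8790 of 16515 genes tested).

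Among the genes of the initiation complex, 3 of 5 rose and 1 fell in EW8, and 2 rose in TC71. The largest change was that of ATG101 (ENSG00000123395), which binds and stabilizes ATG13. Its level, in CPM (read counts scaled to the size of the library, with TMM), was 16.3, 18.6 and 18.6 CPM at 0 h, against 33, 34.4 and 33.3 CPM at 48 h in EW8. In TC71 it was at 11.3, 10.5 and 11 CPM at 0 h, against 16, 15 and 16.9 CPM at 48 h. The 48 h libraries lay above the 0 h libraries in both lines, and ATG101 rose in both (EW8, log2 fold change 0.91, SE 0.07, adjusted p = 9.77e-14; TC71, log2 fold change 0.54, SE 0.08, adjusted p = 7.23e-07). ATG101 shares 614 exonic bases with an annotated gene on the opposite strand. ATG13, the adaptor that joins ULK1 to the complex, stood at 112, 119 and 115 CPM at 0 h, against 145, 145 and 141 CPM at 48 h in EW8. The TC71 libraries were at 102, 107 and 104 CPM at 0 h, against 107, 105 and 106 CPM at 48 h. It rose in EW8 (log2 fold change 0.32, adjusted p = 3.55e-08) and did not pass in TC71 (log2 fold change 0.02, adjusted p = 0.669), where its libraries overlapped. RB1CC1, the large scaffold of the complex also known as FIP200, rose in EW8 (log2 fold change 0.21, adjusted p = 0.000529) and had a log2 fold change of −0.06 in TC71 (adjusted p = 0.317).

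Of the paralogous kinases of the complex, ULK1 had log2 fold changes of 0.02 in EW8 and 0.00 in TC71, with adjusted p = 0.753 and 0.979. ULK2, singled out here after its values were seen, was at 12.8, 12.9 and 12 CPM at 0 h, against 10.8, 10.2 and 10.2 CPM at 48 h in EW8. In TC71 the level was 15, 13.2 and 13.8 CPM at 0 h, against 16.9, 18.3 and 17.3 CPM at 48 h. All 48 h libraries of EW8 lay below, and all those of TC71 above, their 0 h libraries. ULK2 fell in EW8 (log2 fold change −0.27, SE 0.09, adjusted p = 0.00608) and rose in TC71 (log2 fold change 0.32, SE 0.07, adjusted p = 0.000799), and the difference between the responses, EW8 minus TC71, passed the test (−0.59, SE 0.11, adjusted p = 5.76e-05). With total counts alone the fall in EW8 was not called (log2 fold change −0.14, adjusted p = 0.136).

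For the genes that supply membrane, EW8 gave 3 rises and 1 fall among 5, and TC71 gave 1 rise. WIPI1 (ENSG00000070540, chromosome 17, 68420948 to 68457513, minus strand of hg38 in GENCODE release 44), which reads the PI3-kinase product on the growing membrane, was one of the lowest members. It was at 0.219, 0.687 and 0.549 CPM at 0 h, against 1.70, 2.01 and 1.03 CPM at 48 h in EW8, from counts of 5, 12 and 18, against 32, 40 and 21. The EW8 groups did not overlap and WIPI1 rose there 3.26-fold (log2 fold change 1.70, SE 0.32, adjusted p = 1.6e-05). In TC71 it was at 0.298, 0.588 and 0.372 CPM at 0 h, against 0.534, 0.634 and 0.557 CPM at 48 h, with counts of 8, 12 and 9, against 14, 17 and 18. The TC71 groups overlapped (log2 fold change 0.49, SE 0.39, adjusted p = 0.315). The test of the difference between the lines missed the threshold (difference 1.21, SE 0.52, adjusted p = 0.0505), and it passed without any one of EW8 0 h replicate 2, EW8 48 h replicate 3, TC71 0 h replicate 1 or TC71 48 h replicate 2 (adjusted p from 0.019 to 0.0462) or with total counts alone (adjusted p = 0.0413). WIPI1 shares exonic bases with ARSG on the opposite strand, and the libraries were made with a stranded kit, but the strand setting of the counting is not given in the sources used here. WIPI2, its paralog with the higher level, did not pass in either line (EW8, log2 fold change 0.08, adjusted p = 0.212; TC71, log2 fold change 0.12, adjusted p = 0.068), but it passed in TC71 without any one of EW8 0 h replicate 2 or TC71 48 h replicate 2 (adjusted p from 0.0242 to 0.0435), with total counts alone (adjusted p = 0.0113) or with each line fitted alone (adjusted p = 0.0446).

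The lipid transfer proteins ATG2A and ATG2B both rose in EW8 (log2 fold change 0.70, adjusted p = 3.3e-10 and log2 fold change 0.40, adjusted p = 2.29e-09). In TC71 ATG2A rose (log2 fold change 0.32, adjusted p = 0.000298), and ATG2B had a log2 fold change of −0.06 (adjusted p = 0.291). ATG9A, the lipid scramblase of the vesicles that seed the autophagosome, stood at 39.9 ± 1.09 RPKM at 0 h (CPM per kilobase of all annotated exons of the gene, mean ± SD, n = 3) in EW8 and 36.3 ± 1.77 in TC71. It was at 185, 194 and 185 CPM at 0 h, against 161, 156 and 154 CPM at 48 h in EW8. The values in TC71 were 170.0, 181 and 164 CPM at 0 h, against 179.6, 154 and 174 CPM at 48 h. It fell in EW8 (log2 fold change −0.26, adjusted p = 1.24e-05) and did not pass in TC71 (log2 fold change −0.02, adjusted p = 0.781). An annotated gene without a row in the table covers 1833 exonic bases of ATG9A on the same strand, so its reads could have been split.

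Of the 5 genes of the PI3-kinase complex, 4 rose in EW8 and none fell, while in TC71 2 rose and 1 fell. PIK3C3 (VPS34), the lipid kinase itself, was at 56.6, 52.8 and 58 CPM at 0 h, against 95.5, 99 and 101 CPM at 48 h in EW8. In TC71 it was at 83.7, 76.3 and 85 CPM at 0 h, against 88.8, 95.3 and 92 CPM at 48 h. Its groups did not overlap in either line. PIK3C3 rose in EW8 (log2 fold change 0.82, SE 0.05, adjusted p = 5.22e-16) and by less in TC71 (log2 fold change 0.17, SE 0.05, adjusted p = 0.00498), a call that was lost without TC71 0 h replicate 2 (adjusted p = 0.0672). AMBRA1, a regulator of Beclin 1, was at 69.7, 74 and 71 CPM at 0 h, against 103, 103 and 104 CPM at 48 h in EW8. The TC71 libraries were at 59.6, 60.3 and 55.2 CPM at 0 h, against 66.2, 62.6 and 66.9 CPM at 48 h. It rose in both lines (EW8, log2 fold change 0.53, adjusted p = 5.36e-12; TC71, log2 fold change 0.16, adjusted p = 0.00695), the latter call being lost without TC71 0 h replicate 3 (adjusted p = 0.074).

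Beclin 1 (BECN1) binds PIK3C3 together with either ATG14, which directs the complex to autophagosome formation, or UVRAG, which directs it to endosomes. BECN1 and UVRAG rose in EW8 (log2 fold change 0.21, adjusted p = 0.00132 and log2 fold change 0.36, adjusted p = 6.26e-07), and in TC71 their log2 fold changes were −0.08 (adjusted p = 0.284) and −0.11 (adjusted p = 0.103). ATG14 was at 30.1, 30.4 and 33.1 CPM at 0 h, against 23.9, 26.6 and 25.5 CPM at 48 h in TC71, where it fell (log2 fold change −0.30, SE 0.06, adjusted p = 0.000142). In EW8 it was at 30.9, 30.6 and 29.7 CPM at 0 h, against 28.3, 29 and 26.8 CPM at 48 h, and it did not pass (log2 fold change −0.11, adjusted p = 0.109) except without EW8 0 h replicate 3 (adjusted p = 0.0452) or with each line fitted alone (adjusted p = 0.0445). Its 48 h libraries lay below its 0 h libraries in both lines. ATG14 was 1 of the 4 members with an E-box in the window shown above, and it shares exonic bases with FBXO34 on the opposite strand.

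Of the 8 genes of the conjugation machinery 4 rose in EW8 and 3 fell, and in TC71 1 rose and 1 fell. ATG3 (E2-like), the enzyme that hands ATG8 proteins to phosphatidylethanolamine, was at 90.3, 81 and 88.5 CPM at 0 h, against 56.4, 58 and 57 CPM at 48 h in EW8. In TC71 the level was 50.8, 52.5 and 52.7 CPM at 0 h, against 47.4, 48.2 and 46.7 CPM at 48 h. It fell in EW8 (log2 fold change −0.60, SE 0.05, adjusted p = 6.13e-13). The smaller fall in TC71 (log2 fold change −0.13, SE 0.05, adjusted p = 0.0348) was lost without any one of TC71 0 h replicates 2 or 3 or TC71 48 h replicates 1 or 3 (adjusted p from 0.067 to 0.111), with total counts alone (adjusted p = 0.18), by DESeq2 (adjusted p = 0.0536), with no filter on low counts (adjusted p = 0.056) or with the replicate number as a block (adjusted p = 0.0917), although its groups did not overlap. ATG10, the E2-like enzyme of the ATG12 branch, was at 13.9, 10.9 and 13.2 CPM at 0 h, against 7.82, 8.12 and 8.66 CPM at 48 h in EW8. The values in TC71 were 9.46, 9.95 and 9.85 CPM at 0 h, against 10, 9.18 and 9.09 CPM at 48 h. ATG10 fell in EW8 (log2 fold change −0.64, SE 0.10, adjusted p = 4.55e-07), the largest fall of any member, and in TC71 its libraries overlapped (log2 fold change −0.05, adjusted p = 0.696). ATG7, the E1-like enzyme above both, did not pass in either line (EW8, log2 fold change −0.09, adjusted p = 0.185; TC71, log2 fold change −0.12, adjusted p = 0.112).

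The 3 genes of the ligase-like complex all rose in EW8, namely ATG12 (log2 fold change 0.27, adjusted p = 0.000118), ATG5 (log2 fold change 0.13, adjusted p = 0.0236) and ATG16L1 (log2 fold change 0.48, adjusted p = 1.67e-10). The call of ATG5 was lost without any one of EW8 0 h replicates 1 or 2 or EW8 48 h replicate 2 (adjusted p from 0.0717 to 0.297), with each line fitted alone (adjusted p = 0.0826) or with the replicate number as a block (adjusted p = 0.0572). Of the 3, ATG16L1 rose in TC71 (log2 fold change 0.13, adjusted p = 0.0405), at the edge of the threshold, since the call was lost without any one of EW8 0 h replicates 1 or 3, EW8 48 h replicate 3, TC71 0 h replicates 1 or 3 or TC71 48 h replicates 1 or 3 (adjusted p from 0.0569 to 0.205), by DESeq2 (adjusted p = 0.0533) or with the replicate number as a block (adjusted p = 0.0897). The proteases that prime ATG8 proteins and release them from membrane differed in direction in EW8. ATG4B was at 116, 119 and 115 CPM at 0 h, against 134, 126 and 133 CPM at 48 h in EW8. In TC71 it was at 108, 111 and 108 CPM at 0 h, against 121, 113 and 116 CPM at 48 h. It rose in EW8 (log2 fold change 0.17, adjusted p = 0.000916) and did not pass in TC71 (log2 fold change 0.10, adjusted p = 0.0717), except without EW8 0 h replicate 2 (adjusted p = 0.0437), with total counts alone (adjusted p = 0.00574) or with at least 10 counts in every library (adjusted p = 0.0409). ATG4A fell in EW8 (log2 fold change −0.32, adjusted p = 0.00399), a call that was lost without EW8 0 h replicate 3 (adjusted p = 0.0616) or with total counts alone (adjusted p = 0.0737), and it had a log2 fold change of −0.02 in TC71 (adjusted p = 0.912).

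The ATG8 family held the largest rise in each line. Of its 5 genes, 3 rose and 2 fell in EW8 with a median log2 fold change of 1.07, and 3 rose and 1 fell in TC71 with a median of 0.28. MAP1LC3B (ENSG00000140941, chromosome 16, 87383953 to 87404779, plus strand) encodes LC3B, the protein whose lipid-bound form is the usual marker of autophagosomes. It was at 34.2, 32 and 33.7 CPM at 0 h, against 146, 158 and 154 CPM at 48 h in EW8. The TC71 libraries were at 60, 56.9 and 50.5 CPM at 0 h, against 82.4, 90.7 and 93.1 CPM at 48 h. The groups were far apart in both lines, and every EW8 library was below every TC71 library at 0 h and above every TC71 library at 48 h. MAP1LC3B rose 4.59-fold in EW8 (log2 fold change 2.20, SE 0.06, adjusted p = 1.04e-25) and 1.59-fold in TC71 (log2 fold change 0.67, SE 0.06, adjusted p = 1.19e-11). Its main transcript of 2147 bases is 98.0% identical over 741 bases to MAP1LC3B2, which has no row in the table. How reads that match both genes were counted is not known here.

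MAP1LC3A (ENSG00000101460, chromosome 20, 34546854 to 34560345, plus strand), the LC3A gene, was measured at a far lower level. Its counts in EW8 were 8, 11 and 32 at 0 h, against 39, 44 and 50 at 48 h. Scaled to depth, these were 0.350, 0.630 and 0.976 CPM at 0 h, against 2.07, 2.21 and 2.45 CPM at 48 h. Libraries of TC71 held 1.68, 2.11 and 1.86 CPM at 0 h, against 2.98, 3.13 and 2.75 CPM at 48 h. The groups did not overlap in either line, and MAP1LC3A rose in both (EW8, log2 fold change 1.69, SE 0.25, adjusted p = 2.32e-07; TC71, log2 fold change 0.66, SE 0.18, adjusted p = 0.00334). The count of EW8 0 h replicate 3 was the highest of its group, and the estimate in EW8 was 1.36 without EW8 0 h replicate 1 and 2.20 without replicate 3.

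GABARAPL1 (ENSG00000139112, chromosome 12, 10212458 to 10223128, plus strand) belongs to the GABARAP branch, which acts late in autophagosome maturation. It was at 72.2, 68.5 and 74.9 CPM at 0 h, against 147, 149 and 156 CPM at 48 h in EW8. In TC71 the level was 67.3, 61.1 and 66.4 CPM at 0 h, against 79.4, 77.5 and 79.4 CPM at 48 h. The groups did not overlap in either line. GABARAPL1 rose 2.09-fold in EW8 (log2 fold change 1.07, SE 0.05, adjusted p = 4.76e-20) and 1.21-fold in TC71 (log2 fold change 0.28, SE 0.05, adjusted p = 1.77e-05). The window around its RefSeq start, shown in part above, holds the cAMP response element at bases that GENCODE places in an exon of the gene, and an annotated antisense gene shares 329 of its exonic bases. GABARAPL2, also called GATE-16, moved in the opposite direction. It was at 56.7, 48.1 and 54.8 CPM at 0 h, against 41.6, 41.7 and 43.9 CPM at 48 h in EW8. The values in TC71 were 58.2, 54.4 and 56.7 CPM at 0 h, against 52, 50.1 and 50.6 CPM at 48 h. GABARAPL2 fell in EW8 (log2 fold change −0.33, SE 0.06, adjusted p = 4.01e-06). Its fall in TC71 (log2 fold change −0.15, SE 0.05, adjusted p = 0.0238) was lost without any one of TC71 0 h replicates 1 or 3 or TC71 48 h replicates 2 or 3 (adjusted p from 0.0509 to 0.118), with total counts alone (adjusted p = 0.125) or with the replicate number as a block (adjusted p = 0.0559). GABARAP itself was low, at 2.63, 2.52 and 3.11 CPM at 0 h, against 2.18, 2.11 and 2.10 CPM at 48 h in EW8. In TC71 it was at 2.83, 3.19 and 2.98 CPM at 0 h, against 2.60, 3.28 and 3.12 CPM at 48 h. Of the bases of its main transcript, 692 of 1319 are shared with another annotated gene on the same strand, so its reads may be split. GABARAP fell in EW8 (log2 fold change −0.40, SE 0.17, adjusted p = 0.0369), a call that was lost without any one of EW8 0 h replicate 3 or EW8 48 h replicates 1, 2 or 3 (adjusted p from 0.0633 to 0.162), with total counts alone (adjusted p = 0.152), by DESeq2 (adjusted p = 0.0919) or with the replicate number as a block (adjusted p = 0.0615), and in TC71 its log2 fold change was 0.01 (adjusted p = 0.963).

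Levels of different genes can be compared only per length, so the 5 ATG8 genes were set side by side in RPKM, which divide by all exonic bases of a gene (5037 for MAP1LC3B, 4053 for GABARAPL1 and 3010 for GABARAPL2). Their summed level in EW8 was 44 ± 2.55 RPKM (SD, n = 3) at 0 h and 84.7 ± 2.45 RPKM at 48 h, and in TC71 it was 49.0 ± 1.54 and 58.1 ± 0.87 RPKM. In EW8 at 0 h, GABARAPL1 and GABARAPL2 made up 40.3% ± 0.814 and 40.1% ± 1.48 of that sum and did not differ beyond their spread, and MAP1LC3B made up 15% ± 0.437. At 48 h MAP1LC3B made up 35.9% ± 0.956, GABARAPL1 43.9% ± 0.587 and GABARAPL2 16.6% ± 0.31. In TC71 the share of MAP1LC3B went from 22.6% ± 1.63 to 30.3% ± 1.49 and that of GABARAPL2 from 38.2% ± 0.635 to 29.1% ± 0.954, while GABARAPL1 was at 32.7% ± 1.19 and 33.5% ± 0.735. The ranges of the 3 libraries at 0 h and 48 h did not overlap for MAP1LC3B or GABARAPL2 in either line, and they overlapped for GABARAPL1 in TC71. MAP1LC3A and GABARAP each stayed below 5% of the sum in every library. Divided instead by the length of the canonical transcript (2147, 1883 and 974 bases), an alternative chosen after seeing the data, MAP1LC3B went from 14% ± 0.412 to 35.9% ± 0.96 in EW8 and from 21.2% ± 1.54 to 29.4% ± 1.52 in TC71. The order at 0 h depended on the length, since GABARAPL2 then made up 49.1% ± 1.44 in EW8 and 47.2% ± 0.689 in TC71, and GABARAPL1 34.4% ± 0.937 and 28.1% ± 0.963. The ranges of GABARAPL1 in TC71 (27.2% to 29.1% at 0 h and 29.3% to 30.3% at 48 h) then did not overlap. These shares are descriptions, and no test was run on them.

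**Figure D2:**
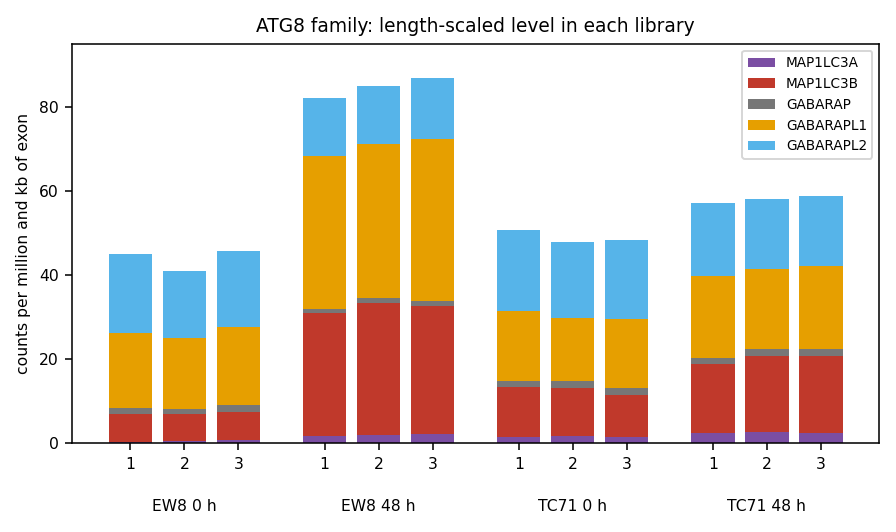
The level of the 5 ATG8 genes in RPKM (CPM per kilobase of exon), stacked for each of the 12 libraries. The EW8 libraries at 48 h reach between 82.1 and 87.0 RPKM in all, against 41.1 to 45.8 RPKM at 0 h, and the MAP1LC3B segment grows the most.

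Of the 5 cargo receptors, 4 rose in EW8 and 3 rose in TC71. All 5 had a log2 fold change above 0 in EW8, as did 8556 of the 16515 genes tested. OPTN (ENSG00000123240, chromosome 10, 13099449 to 13138308, plus strand), the receptor optineurin that acts in the removal of bacteria and damaged mitochondria, was low at 0 h, above all in EW8. It was at 2.32, 1.89 and 2.41 CPM at 0 h, against 7.07, 7.77 and 6.75 CPM at 48 h in EW8. The TC71 libraries were at 6.89, 6.23 and 6.08 CPM at 0 h, against 8.93, 9.51 and 10 CPM at 48 h. The groups did not overlap, and OPTN rose 3.19-fold in EW8 (log2 fold change 1.68, SE 0.13, adjusted p = 2.91e-13) and 1.48-fold in TC71 (log2 fold change 0.57, SE 0.10, adjusted p = 2.43e-05). At 48 h the EW8 libraries had come to the range of the TC71 libraries at 0 h or just above it. NBR1, a receptor that acts with SQSTM1 on protein aggregates, was at 38.8, 39.8 and 40 CPM at 0 h, against 62.1, 66.9 and 67.1 CPM at 48 h in EW8. In TC71 the level was 59.2, 54.6 and 60.1 CPM at 0 h, against 63.6, 64.3 and 65 CPM at 48 h. NBR1 rose in EW8 (log2 fold change 0.72, SE 0.05, adjusted p = 2.67e-14) and in TC71 (log2 fold change 0.15, SE 0.05, adjusted p = 0.0153), the latter call being lost without any one of TC71 0 h replicate 2 or TC71 48 h replicate 3 (adjusted p from 0.0521 to 0.13).

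SQSTM1 (p62), the best known receptor and itself a substrate of autophagy, is described here by a choice made after its values were seen. It was at 33.3, 36.3 and 33.4 CPM at 0 h, against 53.3, 51.4 and 53.1 CPM at 48 h in EW8. The values in TC71 were 46.2, 48.4 and 44.7 CPM at 0 h, against 64.3, 63.1 and 70 CPM at 48 h. SQSTM1 rose in both lines (EW8, log2 fold change 0.62, SE 0.06, adjusted p = 9.04e-12; TC71, log2 fold change 0.51, SE 0.05, adjusted p = 1.37e-09), and the test of their difference did not pass (difference 0.12, SE 0.08, adjusted p = 0.226). It shares 803 bases of its main transcript with MRNIP on the opposite strand. CALCOCO2 (NDP52), a receptor for bacteria and mitochondria, was at 65.3, 63.4 and 65.8 CPM at 0 h, against 86, 88.8 and 84.9 CPM at 48 h in EW8. In TC71 it was at 71.8, 69.4 and 70.2 CPM at 0 h, against 69, 71.7 and 71 CPM at 48 h. CALCOCO2 rose in EW8 (log2 fold change 0.42, adjusted p = 8e-10) and had a log2 fold change of 0.00 in TC71 (adjusted p = 0.98). TAX1BP1 did not pass in either line (EW8, log2 fold change 0.04, adjusted p = 0.55; TC71, log2 fold change −0.07, adjusted p = 0.287).

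**Figure D3:**
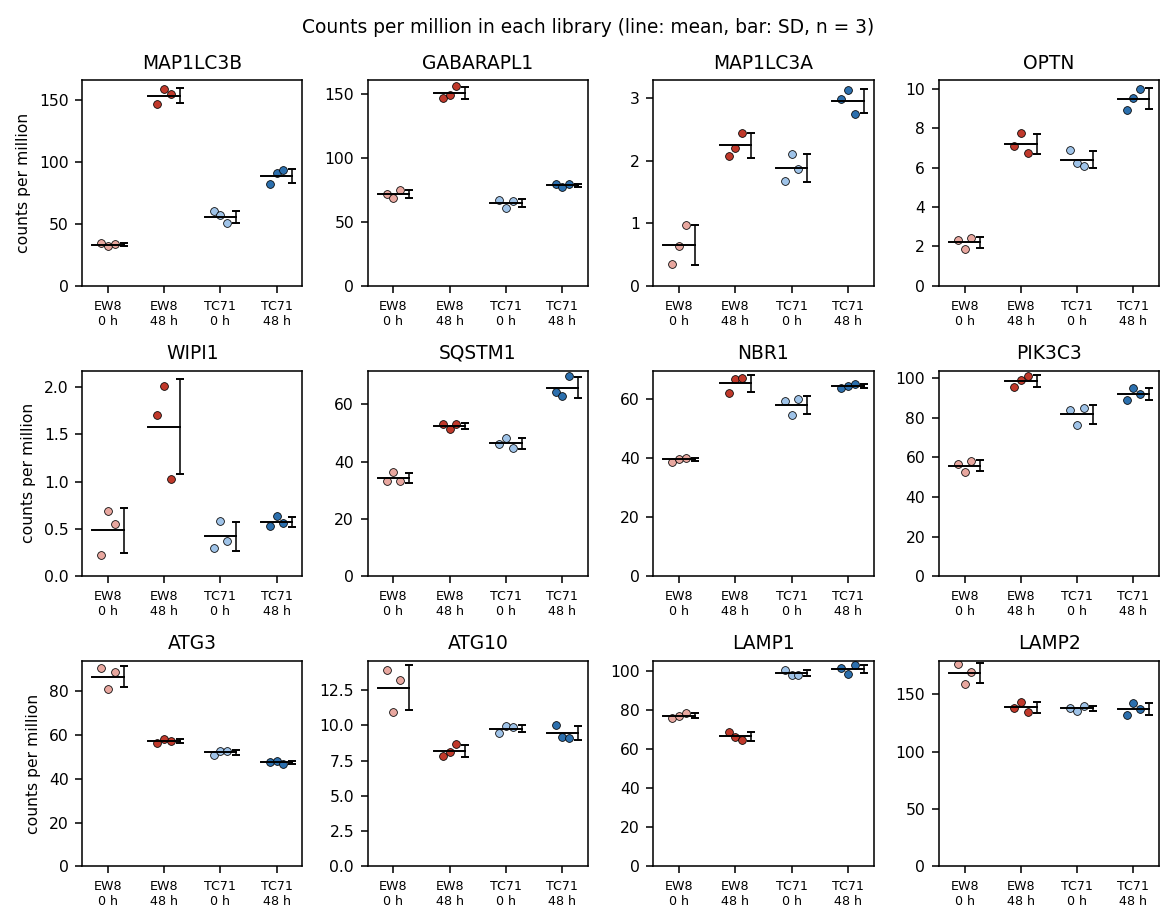
The level of 12 members in each library in CPM, by group; points are libraries, lines are means and bars are standard deviations (n = 3), and each panel has its own linear axis. MAP1LC3B goes from 32.0 to 34.2 CPM at 0 h to 146 to 158 CPM at 48 h in EW8, and the 48 h points of ATG3 and ATG10 lie below the 0 h points in EW8.

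The transcription factors of the TFEB family differed in level. TFE3 was at 28.4 ± 1.07 RPKM (SD, n = 3) in EW8 and 18.4 ± 0.634 RPKM in TC71 at 0 h, and TFEB at 0.281 ± 0.0236 and 0.440 ± 0.0365 RPKM. TFE3 was at 114, 123 and 121 CPM at 0 h, against 177, 170.0 and 183 CPM at 48 h in EW8, without overlap. In TC71, where the groups overlapped, it was at 79.6, 78.2 and 74.4 CPM at 0 h, against 83.6, 76.6 and 88.9 CPM at 48 h. TFE3 rose in EW8 (log2 fold change 0.57, SE 0.05, adjusted p = 1.74e-12) and did not pass in TC71 (log2 fold change 0.10, adjusted p = 0.0996), except without TC71 48 h replicate 2 (adjusted p = 0.0153) or with total counts alone (adjusted p = 0.0142). TFEB did not pass in either line (EW8, log2 fold change 0.30, adjusted p = 0.151; TC71, log2 fold change 0.26, adjusted p = 0.173). MITF rose in TC71 (log2 fold change 0.44, adjusted p = 0.0154), a call lost without any one of TC71 0 h replicate 3 or TC71 48 h replicate 3 (adjusted p from 0.104 to 0.122) or by DESeq2 (adjusted p = 0.0535), and its log2 fold change in EW8 was 0.31 (adjusted p = 0.115). TFEB and MITF had SEs of 0.15 to 0.19, against 0.05 for TFE3, so a change of the size seen for ATG4B or BECN1 was not detectable for them at this depth.

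Of the 5 lysosomal genes, 1 rose and 2 fell in EW8, with a median log2 fold change of −0.11. In TC71 2 rose and none fell. LAMP1, a major glycoprotein of the lysosomal membrane whose upstream sequence is shown above, was at 75.8, 76.7 and 78.4 CPM at 0 h, against 68.9, 65.9 and 64.6 CPM at 48 h in EW8. The TC71 libraries were at 100.5, 97.9 and 97.6 CPM at 0 h, against 102, 98.5 and 103 CPM at 48 h. LAMP1 fell in EW8 (log2 fold change −0.21, SE 0.05, adjusted p = 0.000129) and did not pass in TC71 (log2 fold change 0.03, adjusted p = 0.571), and with total counts alone the fall in EW8 was not called (log2 fold change −0.09, adjusted p = 0.0804). Its partner LAMP2, which is also needed for fusion of autophagosomes and for chaperone-mediated autophagy, fell in EW8 as well (log2 fold change −0.28, adjusted p = 8.94e-07) and had a log2 fold change of −0.01 in TC71 (adjusted p = 0.919).

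Among the lysosomal proteases, CTSL, the cysteine protease cathepsin L, rose in both lines (EW8, log2 fold change 0.67, adjusted p = 3.91e-08; TC71, log2 fold change 0.43, adjusted p = 0.000625). CTSB, cathepsin B, rose in TC71 (log2 fold change 0.16, adjusted p = 0.00343) and had a log2 fold change of 0.02 in EW8 (adjusted p = 0.774). The aspartyl protease gene CTSD did not pass in either line (EW8, log2 fold change −0.11, adjusted p = 0.405; TC71, log2 fold change 0.13, adjusted p = 0.329), but it passed in TC71 without TC71 48 h replicate 2 (adjusted p = 0.00512), where its log2 fold change was then 0.24. CTSD shares 1140 bases of its main transcript with another annotated gene on the same strand.

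Whether the responses of the lines differed was tested as an interaction, the log2 fold change in EW8 minus that in TC71, from the same 12 libraries as the comparisons above. The difference passed for 24 of the 41 members, 18 with the higher value in EW8 and 6 with the lower, against 25.7% and 22.4% of all genes, or 48.1% in either direction. It was more than 2-fold for 3 members, all higher in EW8 (7.28% of all genes), namely MAP1LC3B (difference 1.53, SE 0.08, adjusted p = 2.23e-16), OPTN (difference 1.11, SE 0.17, adjusted p = 1.57e-06) and MAP1LC3A (difference 1.03, SE 0.31, adjusted p = 0.00618). The call of MAP1LC3A was lost without EW8 0 h replicate 1 (adjusted p = 0.0522). Among the 4 members with the smallest p were also GABARAPL1 (difference 0.79, SE 0.07, adjusted p = 1.26e-11), PIK3C3 (difference 0.65, SE 0.07, adjusted p = 2.71e-09) and NBR1 (difference 0.58, SE 0.07, adjusted p = 4.25e-08). Of the 12 members that rose in both lines, 10 rose more in EW8 by this test. The matching share among the 2902 genes that rose in both lines was not counted, so nothing is read from it. SQSTM1 and CTSL did not pass the test (difference 0.24, SE 0.13, adjusted p = 0.132 for CTSL). With total counts alone both passed (SQSTM1, difference 0.19, adjusted p = 0.0413; CTSL, difference 0.32, adjusted p = 0.0457), as did ATG14, ATG4B, ATG5 and TAX1BP1 with differences from 0.15 to 0.26. Lower values in EW8 that did not pass here passed in several alternatives for CTSB (adjusted p from 0.024 to 0.0478), GABARAPL2 (adjusted p from 0.00159 to 0.0484) and ATG4A (adjusted p from 0.0192 to 0.0457), and that of CTSD passed without TC71 48 h replicate 2 (adjusted p = 0.00285).

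The difference contains the change in EW8 itself, so a higher value and a rise in EW8 are not independent. The 18 members with the higher value in EW8 had all risen there. They covered the initiation complex (ATG13, RB1CC1 and ATG101), the membrane genes ATG2A and ATG2B, and the PI3-kinase complex (BECN1, PIK3C3, UVRAG and AMBRA1). Also among them were ATG12, ATG16L1, 3 ATG8 genes, 3 cargo receptors and TFE3. None of the 5 lysosomal proteins was, against 25.7% of all genes, and 5 genes are too few to read this. With total counts alone CTSL passed in this direction (difference 0.32, adjusted p = 0.0457). The 6 members with the lower value in EW8 were ULK2, ATG9A, ATG3, ATG10, LAMP1 and LAMP2, with differences from −0.59 to −0.24. Across the 41 members the log2 fold changes in EW8 and TC71, which share no library, had a Pearson correlation of 0.777. Over all 16515 genes it was 0.695. These are descriptions across genes, which are not independent replicates.

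**Figure D4:**
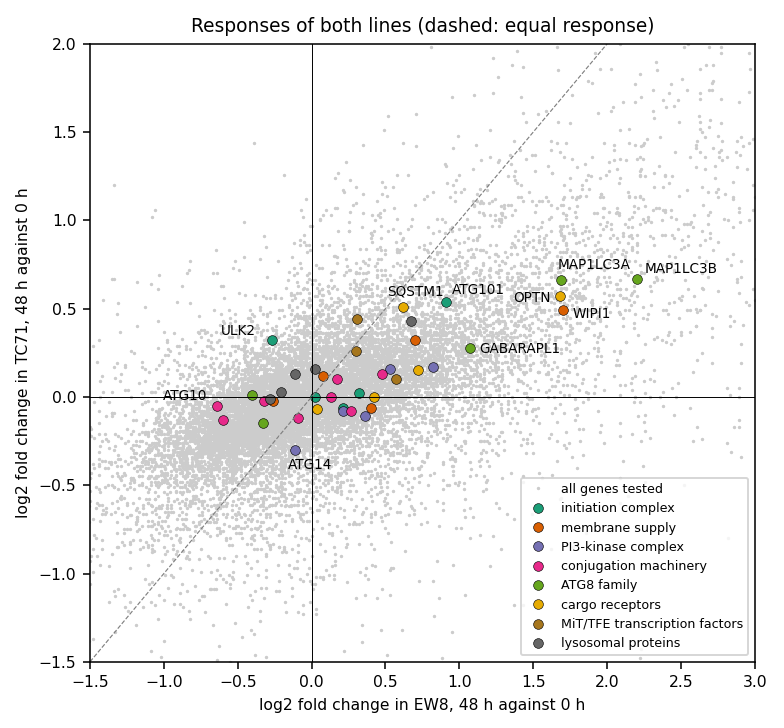
The log2 fold change at 48 h against 0 h in TC71 (vertical axis) against that in EW8 (horizontal axis) for the 41 members, coloured by role, over all genes tested in grey; axes are limited, so some genes lie outside. Most members to the right of 0 lie below the diagonal of equal change, and ULK2 lies at −0.27 in EW8 and 0.32 in TC71.

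Before doxycycline was removed the lines already differed in these genes. At 0 h, 19 members were higher in EW8 and 13 lower, against 32.8% and 32.9% of all genes, or 65.7% in either direction. No member was more than 2-fold higher (4.77% of all genes) and 2 were more than 2-fold lower (11.9% of all genes), OPTN (log2 fold change −1.51, SE 0.13, adjusted p = 3.94e-12) and MAP1LC3A (log2 fold change −1.42, SE 0.25, adjusted p = 5.67e-06). This comparison shares its 0 h libraries with the comparisons above. Of the 5 genes that rose over 2-fold in EW8, MAP1LC3A, MAP1LC3B (log2 fold change −0.74, adjusted p = 1.25e-12) and OPTN were lower there at 0 h than in TC71, WIPI1 did not differ by the test (log2 fold change 0.23, adjusted p = 0.639) and GABARAPL1 was higher (log2 fold change 0.15, adjusted p = 0.00838). Of the conjugation genes, 7 of 8 were higher in EW8 at 0 h, led by ATG3 (log2 fold change 0.74, adjusted p = 3.19e-15) and ATG5 (log2 fold change 0.61, adjusted p = 1.47e-12). Of the cargo receptors, 4 of 5 were lower in EW8, and TAX1BP1 was higher (log2 fold change 0.24, adjusted p = 0.0002).

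Several of the small differences at 0 h depended on single libraries or on the scaling. Calls were lost for GABARAPL1 without any one of EW8 0 h replicate 3 or TC71 0 h replicate 2 (adjusted p from 0.0563 to 0.11) or with total counts alone (adjusted p = 0.796), for ATG4A without EW8 0 h replicate 3 (adjusted p = 0.0943) or with total counts alone (adjusted p = 0.0786), for ATG9A without TC71 0 h replicate 3 (adjusted p = 0.0866) or with total counts alone (adjusted p = 0.992) and for CALCOCO2 without any one of EW8 0 h replicates 1 or 2 or TC71 0 h replicate 1 (adjusted p from 0.0599 to 0.094). MITF lost its call without any one of EW8 0 h replicates 1 or 2 or TC71 0 h replicates 1 or 2 (adjusted p from 0.0788 to 0.144) or by DESeq2 (adjusted p = 0.0753). BECN1 lost it without any one of EW8 0 h replicates 2 or 3, EW8 48 h replicate 3, TC71 0 h replicates 1, 2 or 3 or TC71 48 h replicate 2 (adjusted p from 0.0505 to 0.171), by DESeq2 (adjusted p = 0.0606) or with at least 10 counts in every library (adjusted p = 0.0708), and ATG4B without any one of EW8 0 h replicates 1 or 2, EW8 48 h replicate 3, TC71 0 h replicates 1, 2 or 3 or TC71 48 h replicate 2 (adjusted p from 0.052 to 0.115) or with at least 10 counts in every library (adjusted p = 0.105). Lower values in EW8 that missed the threshold passed it for ULK2 without TC71 0 h replicate 2 (adjusted p = 0.0334), with total counts alone (adjusted p = 0.00142) or with at least 10 counts in every library (adjusted p = 0.0321), for ATG2A without EW8 0 h replicate 2 (adjusted p = 0.0464) or with total counts alone (adjusted p = 0.00676) and for CTSD without TC71 48 h replicate 2 (adjusted p = 0.0129) or with total counts alone (adjusted p = 0.0298). With total counts alone lower values also passed for GABARAPL2 (adjusted p = 0.00077), UVRAG (adjusted p = 0.000798) and ATG14 (adjusted p = 0.0117). The calls of ATG13 (adjusted p = 0.812) and TAX1BP1 (adjusted p = 0.0696) were lost with that scaling too. In all, 12 members were then higher in EW8 and 19 lower, and the median of all genes moved from −0.01 to −0.14.

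Beyond the 41 members, 156 further genes of autophagy and the lysosome were counted from lists sorted by role, of which 149 had a row and 146 were tested. In EW8 65 of them rose, 42 fell and 39 did not pass, with a median log2 fold change of 0.08, and 15 rose more than 2-fold, against 37.0%, 31.6% and 13.9% of all genes that rose, fell and rose more than 2-fold. In TC71 41 rose, 23 fell and 82 did not pass, with a median of 0.04, and 4 rose more than 2-fold, against 22.9%, 19.2% and 3.26% of all genes. The counts of the single lists that follow are to be read against the same shares. No gene of these lists fell more than 2-fold in either line, against 3.35% of all genes in EW8 and 0.854% in TC71. Of 28 genes of nutrient sensing at the lysosome, 12 rose and 10 fell in EW8, against 10 and 6 in TC71. The largest rises in EW8 with counts well above 0 were those of DDIT4 and SESN2, whose products restrain mTORC1, the kinase complex that blocks autophagy when nutrients are plentiful. DDIT4 (REDD1) had 99, 93 and 138 counts in EW8 at 0 h, against 605, 608 and 581 at 48 h, and rose in both lines (EW8, log2 fold change 2.74, adjusted p = 5.63e-22; TC71, log2 fold change 1.16, adjusted p = 1.8e-11). SESN2, a leucine sensor, had 393, 339 and 480 counts in EW8 at 0 h, against 1700, 1904 and 1750 at 48 h, and also rose in both (EW8, log2 fold change 2.43, adjusted p = 1.51e-24; TC71, log2 fold change 1.06, adjusted p = 4.04e-13). FNIP1, a partner of folliculin, rose in EW8 (log2 fold change 1.37, adjusted p = 5.63e-20) and by less in TC71 (log2 fold change 0.17, adjusted p = 0.0199), where the call was lost without any one of TC71 0 h replicate 2 or TC71 48 h replicate 2 (adjusted p from 0.11 to 0.162) or with the replicate number as a block (adjusted p = 0.0571). TFEC, a relative of TFEB with 9 to 27 counts in EW8 at 0 h, rose in EW8 (log2 fold change 1.68, adjusted p = 1.19e-06), and in TC71 it had at most 6 counts in any library.

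Of 26 other autophagosome genes tested, 12 rose and 6 fell in EW8, against 6 and 5 in TC71. RUBCNL (Pacer), which promotes autophagosome maturation, rose in both lines (EW8, log2 fold change 1.40, adjusted p = 4.96e-06; TC71, log2 fold change 0.68, adjusted p = 0.00194), as did EPG5, a tether for fusion with the lysosome (EW8, log2 fold change 1.23, adjusted p = 1.57e-20; TC71, log2 fold change 0.27, adjusted p = 0.000144). WDR45 (WIPI4), of the same family as WIPI1, rose in EW8 (log2 fold change 1.03, adjusted p = 2.38e-12) and in TC71 (log2 fold change 0.25, adjusted p = 0.0125), where the call was lost without any one of TC71 0 h replicate 1 or TC71 48 h replicate 1 (adjusted p from 0.055 to 0.0986). The SNARE gene VAMP8 had counts of 1, 0 and 1 in EW8 at 0 h, against 8, 4 and 6 at 48 h, too few for a firm fold change. Of 14 receptors for single organelles, 8 rose and 4 fell in EW8, against 5 and 1 in TC71, none by more than 2-fold.

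On the lysosomal side, 8 of 15 V-ATPase genes rose in EW8 and 4 fell, and 5 rose and 2 fell in TC71. Only ATP6V0A1, a membrane subunit of that proton pump, rose more than 2-fold in EW8 (log2 fold change 1.12, adjusted p = 2.14e-19), and in TC71 it did not pass (log2 fold change 0.12, adjusted p = 0.0573), except without any one of EW8 0 h replicate 2 or TC71 48 h replicate 1 (adjusted p from 0.0362 to 0.0492), with total counts alone (adjusted p = 0.00519) or with at least 10 counts in every library (adjusted p = 0.0267). Of 40 other hydrolase genes, 18 rose and 9 fell in EW8, against 11 and 5 in TC71. The sialidase NEU1 rose in both lines (EW8, log2 fold change 1.30, adjusted p = 1.32e-21; TC71, log2 fold change 0.37, adjusted p = 5.36e-07). IDUA and MANBA, which degrade glycosaminoglycans and glycoproteins, rose in EW8 (log2 fold change 1.11, adjusted p = 2.74e-07 and log2 fold change 1.08, adjusted p = 1.12e-09) and did not pass in TC71 (log2 fold change −0.07, adjusted p = 0.649 and log2 fold change 0.21, adjusted p = 0.0911). With total counts alone MANBA passed in TC71 (log2 fold change 0.26, adjusted p = 0.0372). ACP5, an acid phosphatase, had counts of 2, 5 and 2 in TC71 at 0 h, against 18, 20 and 30 at 48 h, and rose there (log2 fold change 2.61, adjusted p = 1.08e-05). In EW8 its counts of 0, 0 and 1 at 0 h, against 2, 2 and 5 at 48 h, give no firm fold change. Of 23 other membrane and sorting genes, 7 rose and 9 fell in EW8, against 4 and 4 in TC71. LAMP3, an inducible relative of LAMP1, rose in both lines (EW8, log2 fold change 0.94, adjusted p = 0.00134; TC71, log2 fold change 1.13, adjusted p = 0.00103).

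**Figure D5:**
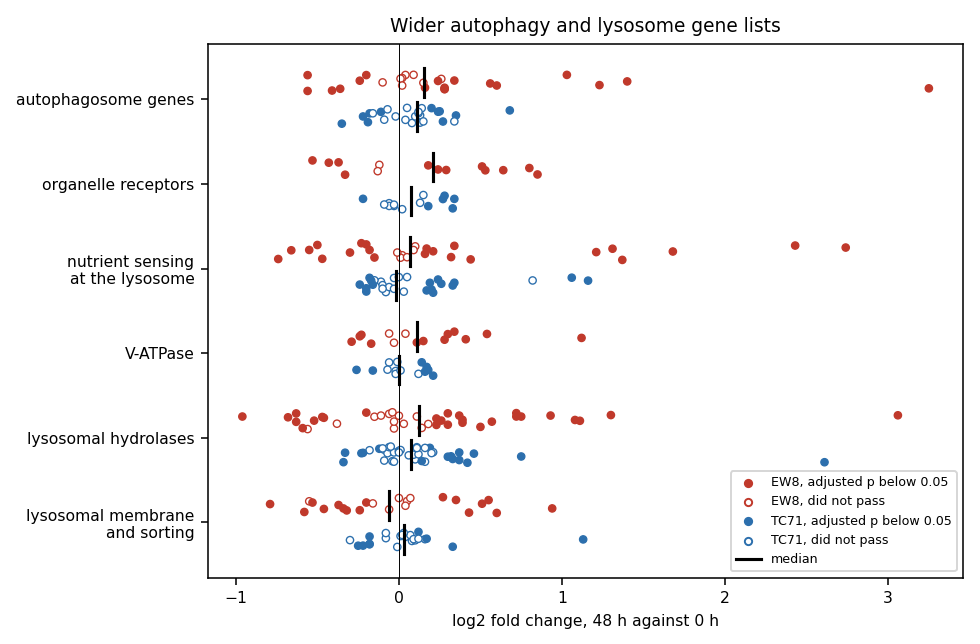
The log2 fold change at 48 h against 0 h of each gene in the 6 further lists, in EW8 and TC71, with the median of each list as a line. The medians lie between −0.06 and 0.21 in EW8 and between −0.01 and 0.11 in TC71, and single genes such as DDIT4 and SESN2 lie far above them.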

How the data were processed

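Polyadenylated RNA was prepared with a stranded kit and sequenced, per the labels, and the authors used FastQC for read quality and the STAR aligner with the hg38 genome. The deposited table holds raw counts of reads per gene, not normalized, for 12 libraries. The lowest sum of a gene over the libraries was 21, so genes with fewer counts had been removed. The counting tool, its annotation and its strand setting are not given in the sources used here.

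All 12 libraries were fitted together in edgeR (4.0.16, R 4.3.3) with 1 mean per group, after filterByExpr (minimum count 10, minimum total 15) and TMM scaling, with robust quasi-likelihood tests, and p-values were adjusted by Benjamini-Hochberg over 16515 genes. Calls used an adjusted p below 0.05, and a second count used a fold above 2. The contrasts were 48 h against 0 h in each line, the difference between these responses, and EW8 against TC71 at 0 h. CPM are TMM-scaled, and RPKM divide them by the exonic length of GENCODE release 44, which held 19943 of the 20771 genes. The edgeR and DESeq2 tests were first run on simulated counts with known changes. Replicates of a group differed by more than sampling noise (chi-square per gene from 1.95 to 8.56), the biological coefficient of variation was 4.17%, and counts per library ranged from 18468485 to 35698991.

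Values in every library are printed for members past 2-fold in a line. They are also printed for at most the 4 largest changes in each direction in a line that passed the test without overlap between groups. The same holds for the 4 smallest p of the difference between the lines, and for the member of each role with the highest RPKM at 0 h. ULK2 and SQSTM1 were added after their values were seen. From each further list at most 4 genes past 2-fold are named. The members and lists were chosen with earlier results of these data known. Alternatives were DESeq2 (1.42.0), its size factors, total counts alone, other filters on low counts, each line alone, a replicate block, a stricter threshold and leaving out each library, and, chosen after seeing the data, the canonical transcript length for levels per length. The replicate numbers are shared between groups in the labels, but same-numbered libraries did not deviate together (correlations from −0.138 to −0.015), so they were not treated as pairs. Figures were drawn with matplotlib (3.10.9).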

Additional observations from a re-analysis of the deposited data

Results flagged for a closer look

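The response to removal of doxycycline differed between EW8 and TC71 for 24 of the 41 members, by the edgeR test of the difference itself at an adjusted p below 0.05 (48.1% of all genes tested passed it in either direction). Values are log2 fold changes in EW8 minus those in TC71. The difference was above 0 for MAP1LC3B (1.53), OPTN (1.11), MAP1LC3A (1.03), GABARAPL1 (0.79), PIK3C3 (0.65) and NBR1 (0.58). Smaller differences above 0 were those of UVRAG (0.47), ATG2B (0.46), TFE3 (0.46), CALCOCO2 (0.41), ATG2A (0.38), ATG101 (0.37), AMBRA1 (0.37), ATG12 (0.35), ATG16L1 (0.35), ATG13 (0.29), BECN1 (0.29) and RB1CC1 (0.27). It was below 0 for ULK2 (−0.59), ATG10 (−0.59), ATG3 (−0.47), LAMP2 (−0.27), LAMP1 (−0.25) and ATG9A (−0.24). ULK2 was the one member that fell in EW8 and rose in TC71, while ATG10, LAMP1, LAMP2 and ATG9A fell in EW8 and did not pass in TC71. No explanation for these differences was tested.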

How the results depend on the processing

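Under the alternatives, 379 of 388 counts of called genes stayed within 1.5 times the reported count, and of 3698 values of single genes 3530 kept their direction and their side of the threshold, 101 lost a call, 65 gained one and 2 turned sign. With total counts alone 5 members fell in EW8 instead of 9, 1 fell in TC71 instead of 3, and 12 instead of 19 were higher in EW8 at 0 h. Scaled that way BECN1 and ATG4B turned at 0 h to log2 differences of 0.00 and −0.03 (adjusted p = 0.971 and 0.491). With at least 10 counts in every library, 3 members rose over 2-fold in EW8 instead of 5, because WIPI1 and MAP1LC3A were no longer tested, and 1 instead of 2 was over 2-fold lower in EW8 at 0 h. At an adjusted p below 0.01, 1 member fell in TC71. Leaving out each library in turn gave 1 to 3 members that fell in TC71. Of the calls reported, 22 of 23 rises and 5 of 9 falls in EW8, 10 of 15 rises and 1 of 3 falls in TC71, 17 of 18 and 6 of 6 differences between the responses, and 12 of 19 higher and 11 of 13 lower values in EW8 at 0 h were kept in every alternative at an adjusted p below 0.05 in which the gene was tested.

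The gene of highest level per length at 0 h in a role depended on the length used. With the canonical transcript length, chosen after seeing the data, it was BECN1 instead of AMBRA1, ATG3 instead of ATG4B and TAX1BP1 instead of CALCOCO2 in the mean of both lines.

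With the replicate number as a block, 1 member fell in TC71 instead of 3, and over all genes 5875 rose and 4968 fell in EW8, against 3322 and 2645 in TC71. No library correlated best with its own number. The block was not set for EW8 against TC71 at 0 h, where the numbers lie within each line.

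Depth limits WIPI1, MAP1LC3A, TFEB, MITF and GABARAP, whose log2 fold changes at 48 h had standard errors of 0.15 to 0.39 in the 2 lines, so that the smaller changes called in abundant members were not detectable in these genes. Genes that share exonic bases with another gene have uncertain counts.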
